A study of Mus musculus with 9 samples.

Results

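The nuclear genes of oxidative phosphorylation were followed in mouse skeletal stem cells of the fracture callus at 3 ages. They were taken from the deposited table by symbol: names that begin with Nduf, Uqcr or Atp5, the genes Sdha, Sdhb, Sdhc and Sdhd, and Cox followed by a digit from 4 to 8. Symbols holding -ps or ending in os or Rik were left out, which removed 9 symbols. This gave 97 of the 53607 rows: 39 genes named as complex I subunits, 8 complex I assembly factors, 4 genes of complex II, 8 of complex III, 21 of complex IV and 17 of complex V. Ndufa4 and Ndufa4l2 were counted under complex IV, where the NDUFA4 protein is now placed, in spite of their symbols. The rows Cox6c2, Ndufa11b, Ndufb4c and Ndufs6b are annotated as processed pseudogenes and were counted with the complex of their symbol. The symbol rule used no expression value, but the group was chosen with earlier results of these data known.

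Oxidative phosphorylation is the last stage of respiration in mitochondria. Complexes I and II take electrons from NADH and succinate, complex III passes them through cytochrome c to complex IV, complex IV reduces oxygen, and complex V makes ATP from the proton gradient that complexes I, III and IV build. Most subunits are encoded in the nucleus and the rest in mitochondrial DNA, so that assembly needs both genomes. Skeletal progenitors and chondrocytes are known to rely strongly on glycolysis, and their respiration is known to increase as they differentiate towards osteoblasts.

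The cells were called mSSC by the submitters and came from the callus of fractured C57BL/6J femurs at day 10 after injury, from adult mice of 2 months, middle-aged mice of 12 months and aged mice of 24 months, with 3 libraries per age and 9 in all. Between 500 and 1000 cells per sample were sorted as ITGAV-positive, with CD105, 6C3, THY1, TIE2, TER119 and CD45 all negative. All 3 ages were fractured, the treatment label of all 9 samples is NA, and the labels do not say whether animals were pooled, so a p-value measures the spread between these libraries. Libraries are numbered 1 to 3 within an age in the order of the table, which carries no replicate number.

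Levels are given in TPM, a transcript's share of a library corrected for length, which summed to 1000000 in each library, and 13387 to 13813 genes reached 1 TPM. Of the gate genes, Itgav lay at 25.2 to 50.1 TPM, Ptprc (CD45) did not exceed 0.281 TPM and Tek (TIE2) did not exceed 0.301 TPM, while Thy1, Enpep (6C3) and Eng (CD105) reached 4.27, 1.63 and 4.08 TPM. Library 1 of the 24 month mice stood apart, its mean correlation being 0.932, where the rest had 0.953 to 0.962, and 33313 of its rows being at 0, where the rest had 29284 to 31082. A gene was tested where it reached 1 TPM in at least 3 of the 9 libraries, which kept 14501 genes and 91 of the 97. The 6 left out were Cox6c2, Cox7b2, Cox8b, Cox8c, Ndufa11b and Ndufs6b, all with a mean under 1 TPM. Fold changes below are differences of log2(TPM + 1), which understate the change of genes near 0.

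Because most of these genes are known as targets of a few ubiquitous factors, their start regions are shown before their levels. A RefSeq window (GRCm38.p6) from 250 bases before to 50 bases after the start was at hand for 76 of the 97 genes. The letters searched on both strands were GCGCA and GCGC with any base between them for NRF1, CCGGAAG for GABPA of the ETS family, AAGATGGCG for YY1 and ACGTG for the core of the hypoxia response element. NRF1 letters were in 18 of the 76 windows (23.7%), against 4.6% of all 32851 windows. GABPA letters were in 17 (22.4%, against 8.86% of all windows), and YY1 letters in 7 (9.21%, against 1.4%). Hypoxia element letters were in 19 windows (25%, against 19.6%). Where a gene of the group had several windows only the first was used, while the shares over all windows counted every window. The windows were not matched for base composition, and a match is a description and not a binding site. The windows of the 4 genes with the highest fold change between 24 and 2 months among those of at least 100 TPM with a window (Ndufa3, Ndufb7, Atp5g2 and Atp5k), and of Cox6a1, which had the highest mean level of all, read as follows on the strand of the gene, with matches to the 4 motifs on either strand in capitals. They lie at chr7:3617123-3617422, plus strand; chr8:83566508-83566807, plus strand; chr15:102670998-102671297, minus strand; chr5:108434350-108434649, minus strand; and chr5:115348909-115349208, minus strand.
Ndufa3: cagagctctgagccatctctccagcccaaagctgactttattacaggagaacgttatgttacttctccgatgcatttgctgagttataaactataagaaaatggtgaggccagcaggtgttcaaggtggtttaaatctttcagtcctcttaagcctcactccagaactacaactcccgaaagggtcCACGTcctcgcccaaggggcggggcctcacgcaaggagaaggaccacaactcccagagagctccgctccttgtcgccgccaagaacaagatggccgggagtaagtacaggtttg
Ndufb7: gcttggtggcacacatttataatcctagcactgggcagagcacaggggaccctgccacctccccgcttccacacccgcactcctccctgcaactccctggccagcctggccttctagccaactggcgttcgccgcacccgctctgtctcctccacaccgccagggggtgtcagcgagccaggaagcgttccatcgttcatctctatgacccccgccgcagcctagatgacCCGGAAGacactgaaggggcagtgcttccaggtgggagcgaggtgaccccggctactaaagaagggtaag
Atp5g2: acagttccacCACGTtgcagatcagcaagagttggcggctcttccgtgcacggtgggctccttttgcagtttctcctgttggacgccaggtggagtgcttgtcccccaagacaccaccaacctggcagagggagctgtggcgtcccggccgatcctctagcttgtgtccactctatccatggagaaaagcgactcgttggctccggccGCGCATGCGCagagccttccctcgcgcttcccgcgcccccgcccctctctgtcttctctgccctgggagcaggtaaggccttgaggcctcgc
Atp5k: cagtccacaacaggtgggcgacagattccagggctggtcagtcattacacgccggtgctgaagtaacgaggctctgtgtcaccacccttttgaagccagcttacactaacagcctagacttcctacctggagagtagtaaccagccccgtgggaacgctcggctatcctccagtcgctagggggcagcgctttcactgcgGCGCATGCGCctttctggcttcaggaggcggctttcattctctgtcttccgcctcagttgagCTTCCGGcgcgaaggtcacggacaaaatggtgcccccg
Cox6a1: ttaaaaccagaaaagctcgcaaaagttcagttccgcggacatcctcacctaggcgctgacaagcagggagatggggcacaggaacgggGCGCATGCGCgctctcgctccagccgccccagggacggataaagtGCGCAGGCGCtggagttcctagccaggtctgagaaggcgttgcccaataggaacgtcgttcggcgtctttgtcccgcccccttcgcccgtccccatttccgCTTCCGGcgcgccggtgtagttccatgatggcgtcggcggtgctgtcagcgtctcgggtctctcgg
Atp5g2, Atp5k and Cox6a1 hold NRF1 letters, Cox6a1 at 2 places. Ndufb7, Atp5k and Cox6a1 hold GABPA letters, and Ndufa3 and Atp5g2 hold hypoxia element letters in the other orientation.

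The genes were abundant in all libraries. Summed over all 97, they took 30271, 30210 and 25825 TPM at 2 months, 32589, 41247 and 29870 TPM at 12 months, and 39432, 37344 and 32500 TPM at 24 months. The 24 month libraries were all above the 2 month libraries, while the 12 month libraries spread across both, with library 2 the highest of the 9. In bulk RNA, fewer cells of a type and less RNA per cell cannot be told apart. By mean over the 9 libraries, 67 genes lay between 100 and 1000 TPM, 18 between 10 and 100 TPM, and 3 above 1000 TPM: Cox6a1, Cox4i1 and the complex V catalytic subunit Atp5b.

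**Figure D1:**
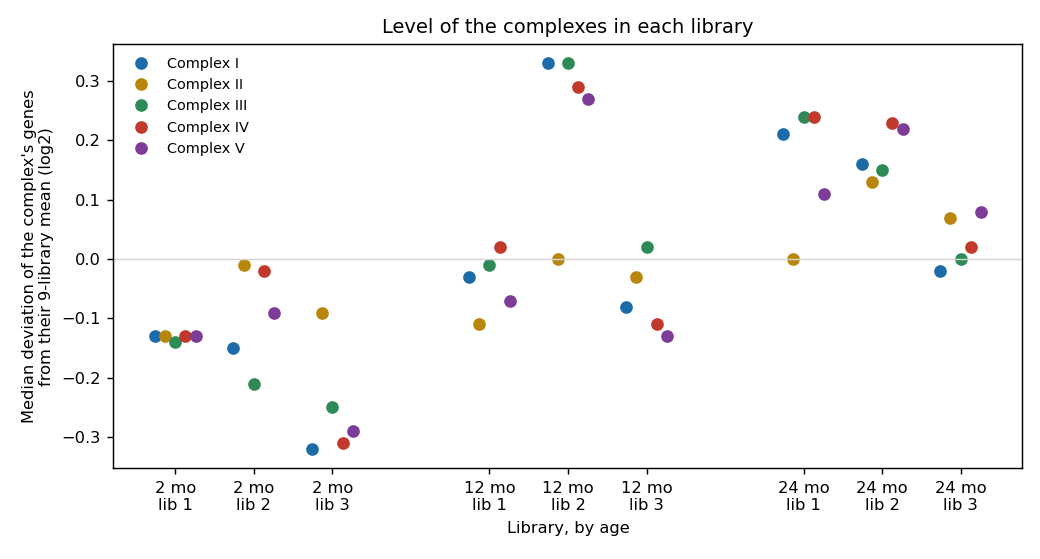
Points give, for each complex and library, the median over its tested genes of the deviation from each gene's mean over the 9 libraries (y axis, log2), with the libraries of 2, 12 and 24 months along the x axis. Over all tested genes of the 5 complexes and the assembly factors, the median lay at -0.13, -0.12 and -0.29 at 2 months, at -0.04, 0.28 and -0.08 at 12 months, and at 0.17, 0.18 and 0.03 at 24 months.

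Between 24 and 2 months no gene of the group passed the test, and most lay a little higher in the aged mice. The median log2 fold change of the 91 genes was 0.29, against -0.02 over all genes tested, and 80 of the 91 were positive, where 47.9% of all genes were. At an adjusted p under 0.05 (limma, Benjamini-Hochberg over all 14501 genes), 0 of the 91 were called and 0.159% of all genes were. The smallest adjusted p was 0.173. At an unadjusted p under 0.05, 31 of the 91 were higher, where 7.90% of all genes were, and 1 was lower, where 6.60% of all genes were. In 52 genes (57.1%) all 3 aged libraries lay above all 3 libraries of 2 months, where 11.2% of all genes did so, and 1 gene, Cox4i2, lay wholly below, where 8.97% did.

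The 12 month mice were set against the same 2 month libraries, so these comparisons are not independent. The median was 0.23, against -0.07 over all genes tested, and 76 of the 91 were positive, where 42.8% of all genes were. Without 12 month library 2 the median was 0.14, against -0.04 over all genes. With the trend on transcript length and GC content removed the median was 0.08, against -0.07 over all genes, and 58 were positive. In that setting 14 were higher without overlap, where 8.08% of all genes were. None of the 91 was called by limma, where 0.724% of all genes were; the smallest adjusted p was 0.0872. At an unadjusted p under 0.05, 23 were higher and 1 was lower, where 5.99% and 9.65% of all genes were. All 3 libraries of 12 months lay above those of 2 months in 34 genes (37.4%), where 9.58% of all genes did so. They lay wholly below in 4 genes (Atp5s, Ndufa10, Ndufaf4 and Sdha), where 15.4% of all genes did.

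Between 24 and 12 months the median of the group was 0.07, against 0.07 over all genes tested, and 60 of the 91 were positive, where 57.4% of all genes were. After median-of-ratios scaling the median was -0.03, against -0.00 over all genes, and 41 were positive. The complex IV isoform genes Cox4i2 and Cox6a2 fell in the aged mice. They were 2 of the 91, where 0.455% of all genes were called and 0.303% were called lower. At an unadjusted p under 0.05, 7 were higher, where 9.09% of all genes were, and 4 lower, where 5.05% were. Wholly higher values at 24 months were found in 9 genes (9.89%), where 11.1% of all genes had them, and wholly lower values in 5 (Cox4i2, Cox6a2, Cox7a2l, Ndufa6 and Ndufc2), where 6.14% did. The median and the count of wholly higher genes depended on 12 month library 2. Without it the median was 0.21, against 0.04 over all genes. In that fit 38 genes were higher without overlap, where 16.8% of all genes were. Leaving out a library of a compared age can only keep or raise such a count for genes that stay in the fit. Without library 1 or 3 of 12 months the count was 9 and 10, where 13.6% and 20% of all genes were. Over all 3 ages, the moderated F test of limma called 2 of the 91, again Cox4i2 and Cox6a2, where 0.759% of all genes were called. Cox6a2 met the filter of 1 TPM in 3 libraries only through the 12 month libraries, so its calls rest on that selection.

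**Figure D2:**
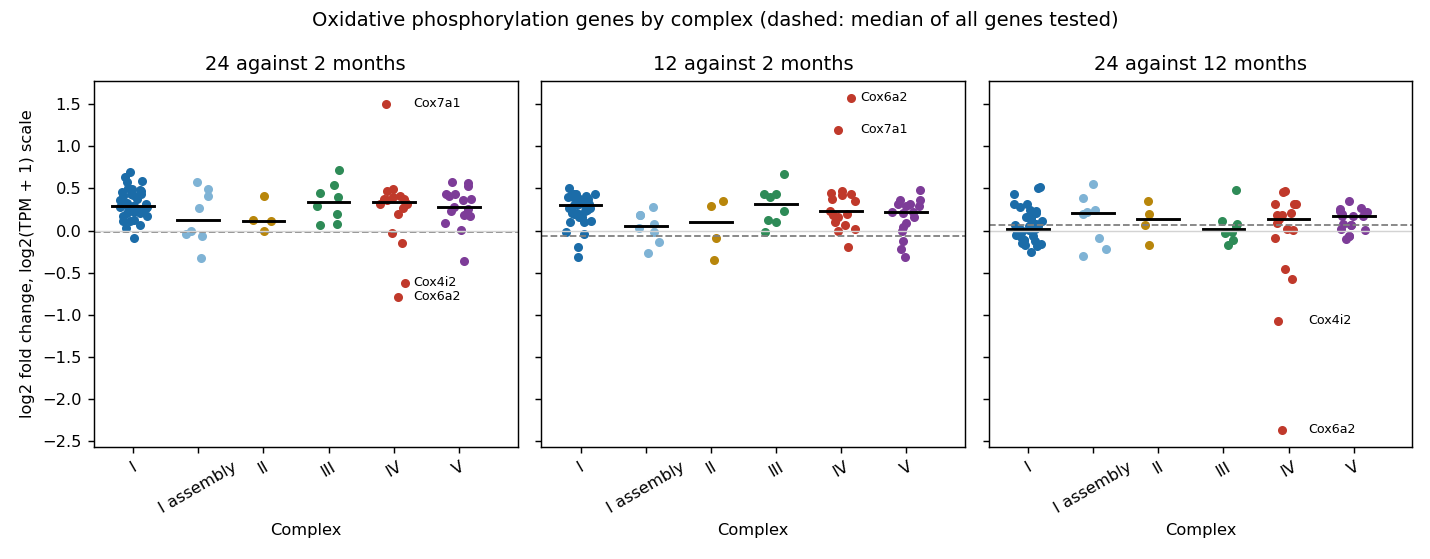
Each point is a tested gene, placed by complex (x axis) and by its log2 fold change on the log2(TPM + 1) scale (y axis), with a panel for each comparison. Black bars are the median of a complex and the dashed line is the median of all genes tested (-0.02, -0.07 and 0.07). Complex IV holds the points farthest from its bar: Cox7a1, Cox4i2 and Cox6a2.

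Complex I, the NADH dehydrogenase, is built from core subunits that carry electrons and a larger number of accessory subunits that stabilise it. Between 24 and 2 months, the median log2 fold change of its 37 tested genes was 0.29 and 36 of them were positive. All 29 accessory subunits were positive, with a median of 0.30, and 6 of the 7 nuclear core subunits, with a median of 0.27. Against 2 months, the 12 month median of the 37 was 0.30. None of the 37 passed limma in any of the 3 comparisons. Its smallest adjusted p was 0.231 between 24 and 2 months, 0.185 between 12 and 2 months and 0.108 between 24 and 12 months. At an unadjusted p under 0.05, 13, 11 and 2 were higher in that order, where 7.90%, 5.99% and 9.09% of all genes were. None was lower, where 6.60%, 9.65% and 5.05% of all genes were.

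Ndufb7, an accessory subunit of the membrane arm, had 391, 393 and 271 TPM at 24 months, against 251, 217 and 225 TPM at 2 months. Library 3 of 24 months was lower than the others of that age and still above each library of 2 months, and the log2 fold change was 0.58 (SE 0.19, adjusted p = 0.231, limma). Ndufa3, another accessory subunit, had 670, 709 and 498 TPM at 24 months, against 460, 451 and 331 TPM at 2 months (log2 fold change 0.59, SE 0.20). It was near the 2 month level at 12 months, with 385, 561 and 390 TPM. Ndufb4 and Ndufb4c had the highest fold changes of the complex, 0.70 (SE 0.27) and 0.64 (SE 0.25) between 24 and 2 months. All 31-base words of the Ndufb4c transcripts also occur in other genes, Ndufb4 among them, so reads could have been shared between them and both values are uncertain.

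Among the core subunits, Ndufs7 and Ndufs8, which hold iron-sulfur clusters of the arm that leads to ubiquinone, were higher at 24 months by 0.37 (SE 0.14) and 0.44 (SE 0.22) on the log2 scale. The flavoprotein subunits Ndufv1 and Ndufv2 were both higher by 0.27 (SE 0.15 and 0.13), and Ndufs3 by 0.11 (SE 0.13). Ndufs1, the longest of the core subunits, had 36.0, 39.9 and 48.0 TPM at 24 months, against 37.8, 52.7 and 41.6 TPM at 2 months, and these overlap. Its log2 difference was -0.09 (SE 0.21) between 24 and 2 months and -0.32 (SE 0.21) between 12 and 2 months.

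Ndufa10, an accessory subunit, was the member of the complex with the lowest unadjusted p between 24 and 12 months. It had 103, 98.7 and 96.0 TPM at 24 months, against 69.3, 72.6 and 64.3 TPM at 12 months, with no overlap. The log2 fold change was 0.52 (SE 0.13, adjusted p = 0.108, limma), and the gene did not pass the test. At 2 months it had 74.4, 82.4 and 80.6 TPM, so that the 12 month libraries were also the lowest of the 3 ages.

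The 8 complex I assembly factors, which help to build the complex and are not part of it, did not lie to the same side: 4 were positive and 4 negative between 24 and 2 months, with a median of 0.13. Ndufaf2 had 46.7, 52.5 and 42.2 TPM at 24 months, against 30.1, 28.2 and 35.3 TPM at 2 months (0.58, SE 0.19, adjusted p = 0.231, limma), but 65.1% of its 31-base words occur in other genes. Ndufaf8 was at 96.0, 72.9 and 66.4 TPM, against 57.5, 46.1 and 61.5 TPM (0.49, SE 0.19). Ndufaf6 had 7.42, 25.0 and 18.9 TPM at 24 months, against 18.0, 24.1 and 16.9 TPM at 2 months, and its low value was that of library 1.

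Complex II, succinate dehydrogenase, is also an enzyme of the tricarboxylic acid cycle and has no subunit from mitochondrial DNA. Its 4 genes differed among themselves. Sdhb, the iron-sulfur subunit, had 334, 301 and 292 TPM at 24 months, against 233, 249 and 213 TPM at 2 months, without overlap (0.41, SE 0.15, adjusted p = 0.267, limma). Sdha, the flavoprotein subunit, had 69.2, 73.3 and 75.2 TPM at 24 months, against 78.5, 73.2 and 66.8 TPM at 2 months, a log2 difference of -0.00 (SE 0.15). At 12 months Sdha was at 51.2, 53.8 and 66.3 TPM, below every library of 2 months (-0.35, SE 0.15, adjusted p = 0.289, limma). The membrane anchors Sdhc and Sdhd were higher by 0.11 (SE 0.16) and 0.12 (SE 0.14) at 24 against 2 months.

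All 8 genes of complex III, the cytochrome bc1 complex, were positive between 24 and 2 months, with a median of 0.35, and none passed limma. At an unadjusted p under 0.05, 3 were higher, where 7.90% of all genes were. Uqcrq, a small subunit, had the highest fold change: 985, 737 and 600 TPM at 24 months, against 500, 487 and 399 TPM at 2 months (0.72, SE 0.23, adjusted p = 0.219). At 12 months it had 645, 1014 and 595 TPM, also above every library of 2 months (0.67, SE 0.23, adjusted p = 0.186). Uqcr11, another small subunit, had the largest coefficient of variation over the 9 libraries (38.0%) among the tested genes of the group above 10 TPM, with 1611, 964 and 742 TPM at 24 months, against 883, 711 and 591 TPM at 2 months; library 1 of 24 months and library 2 of 12 months (1498 TPM) were its highest. Uqcrc1, a core protein, was at 261, 235 and 184 TPM at 24 months, against 142, 163 and 180 TPM at 12 months (0.48, SE 0.16, adjusted p = 0.211).

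Complex IV, cytochrome c oxidase, has several nuclear subunits for which a tissue- or oxygen-regulated isoform exists beside the common form. The 11 common or single genes were all positive between 24 and 2 months, with a median of 0.37. Cox5a, a subunit on the matrix side that has no second isoform, had 381, 433 and 290 TPM at 24 months, against 272, 268 and 234 TPM at 2 months (0.49, SE 0.17, adjusted p = 0.242, limma). It had 275, 286 and 227 TPM at 12 months, near the 2 month level. Cox6a1 had 2807, 2451 and 1925 TPM at 24 months, against 2208, 2092 and 1492 TPM at 2 months, which overlap (0.31, SE 0.22).

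Cox4i2 encodes the isoform of subunit 4 that is induced by low oxygen and is known from lung and from smooth muscle and pericytes. The gene lies at chr2:152754173-152765037 on the plus strand of GRCm38. It had 237, 195 and 187 TPM at 2 months, 354, 278 and 225 TPM at 12 months, and 134, 128 and 138 TPM at 24 months. The aged libraries were the lowest of the 9 and lay close together. Cox4i2 fell between 24 and 12 months (-1.07, SE 0.17, adjusted p = 0.0267, limma); the difference between 24 and 2 months (-0.62, SE 0.17, adjusted p = 0.173) and that between 12 and 2 months (0.45, SE 0.17, adjusted p = 0.236) did not pass. The call was lost without library 1 (adjusted p = 0.12) or library 3 (0.0556) of 12 months and without library 1 (0.0619) or library 2 (0.111) of 24 months. It was also lost without the filter on low values (0.166), without the intensity trend (0.103) and in a fit of 6 libraries (0.0702). None of its 31-base words occurs in another gene.

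The common isoform Cox4i1 did not follow it. It had 971, 907 and 819 TPM at 2 months, 1112, 1659 and 1045 TPM at 12 months, and 1457, 1146 and 958 TPM at 24 months. The share of Cox4i2 in the summed TPM of both genes was 17.7% to 19.6% at 2 months, 14.4% to 24.2% at 12 months and 8.45% to 12.6% at 24 months. The share at 24 months was thus below that of every library of the other ages. This share was not tested.

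Markers of smooth muscle and pericytes lay to the other side. Summed over 9 such genes, they were at 210 to 370 TPM at 2 months, 174 to 670 TPM at 12 months and 708 to 1641 TPM at 24 months; 7 of the 8 tested were positive between 24 and 2 months, and Actg2 rose (2.96, SE 0.45, adjusted p = 0.0355, limma), a call lost when any 1 of the 2 month libraries, the 12 month library 3 or the aged library 1 or 2 was left out (adjusted p from 0.0751 to 0.164). Between 24 and 12 months all 8 tested were positive, with a median of 1.80, while Cox4i2 was lower. Summed chondrocyte markers were at 59449 to 67506 TPM at 2 months, 30978 to 42514 TPM at 12 months and 26603 to 47108 TPM at 24 months. Of 8 osteoblast markers, 6 were negative between 24 and 2 months, with a median of -0.27. Between 12 and 2 months all 8 were negative, with a median of -0.81. None of the 8 was called by limma in these comparisons. Summed erythroid markers were at 926 TPM in library 2 of 12 months and 966 TPM in library 1 of 24 months, and at 73.3 to 338 TPM in the other 7 libraries. The same pair of libraries had the highest sums of oxidative phosphorylation genes, 41247 and 39432 TPM. Without that aged library the median of the 91 between 24 and 2 months was 0.27. In that fit 61 genes were higher without overlap, where 16.5% of all genes were. Leaving out a library can only keep or raise that count for genes that stay in the fit. Of 8 adipocyte markers 2 were tested, and Fabp4, a fatty acid carrier, rose between 24 and 2 months (1.68, SE 0.26, adjusted p = 0.0355, limma) and between 12 and 2 months (2.37, SE 0.26, adjusted p = 0.00245, limma). The call between 24 and 2 months was lost without 2 month library 1 or 3, 12 month library 3 or aged library 1 or 2 (adjusted p from 0.0748 to 0.152). Adipoq did not exceed 0.231 TPM, and Lep and Ucp1 were listed at 0 in all 9 libraries. The part of these cell types in the levels of the oxidative phosphorylation genes was not tested.

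Cox6a2 encodes the heart and skeletal muscle isoform of subunit 6a and lies at chr7:128205435-128206387 on the minus strand of GRCm38. It was listed at 0 in libraries 1 and 3 of 24 months and had 0.310 TPM in library 2, against 4.64, 5.15 and 4.20 TPM at 12 months. At 2 months it had 0.543, 2.49 and 0.251 TPM. Cox6a2 met the filter of 1 TPM in 3 libraries only through the 12 month libraries, where it was highest. Its calls thus rest on that selection and on values near 0. Cox6a2 fell between 24 and 12 months (-2.37 on the log2(TPM + 1) scale, SE 0.39, adjusted p = 0.0267, limma). The difference between 12 and 2 months did not pass (1.58, SE 0.39, adjusted p = 0.0872, limma). The call ended when any single 12 month library was left out, and likewise without the aged library 1 or 2 (adjusted p from 0.0538 to 0.134). An offset of 0.1 in place of 1 (adjusted p = 0.059), no filter (0.178), no intensity trend (0.061) and a fit of 6 libraries (0.0529) ended it too. The common isoform Cox6a1 was over 1000 TPM in every library, so Cox6a2 never exceeded 0.257% of the sum of both. Summed skeletal muscle markers did not follow Cox6a2: they were at 53.2 to 66.3 TPM at 2 months, 47.9 to 54.5 TPM at 12 months and 70.8 to 102 TPM at 24 months, and Myog and Myh2 were listed at 0 in all 9 libraries.

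Cox7a1, the muscle isoform of subunit 7a, had 3.14, 4.04 and 2.14 TPM at 24 months, against 0.530, 0 and 0.839 TPM at 2 months, without overlap. Its log2 fold change was the highest of the 91 genes (1.51, SE 0.45) and did not pass (adjusted p = 0.202, limma). At 12 months it had 1.06, 5.79 and 1.44 TPM. Cox7b2, Cox8b and Cox8c, known from testis or muscle, were at or near 0: Cox7b2 was listed at 0 in all 9 libraries, Cox8c did not exceed 0.425 TPM and Cox8b did not exceed 1.49 TPM. Cox6b2, a testis isoform, lay at 11.9 to 23.5 TPM in all libraries and at most 2.55% of its sum with Cox6b1.

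Ndufa4l2 is induced by HIF-1 and is known to lower complex I activity. It was about as abundant as its common relative Ndufa4: 481, 436 and 408 TPM at 2 months, 707, 591 and 494 TPM at 12 months, and 503, 315 and 505 TPM at 24 months. The 24 and 12 month values overlap (-0.46, SE 0.20, adjusted p = 0.329, limma). Cox7a2l, a factor that joins complexes III and IV into supercomplexes, had 79.2, 81.4 and 93.8 TPM at 24 months, against 127, 119 and 136 TPM at 12 months, with no overlap. Its difference of -0.58 (SE 0.14) did not pass (adjusted p = 0.0977), and it had 83.7, 102 and 97.0 TPM at 2 months.

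**Figure D3:**
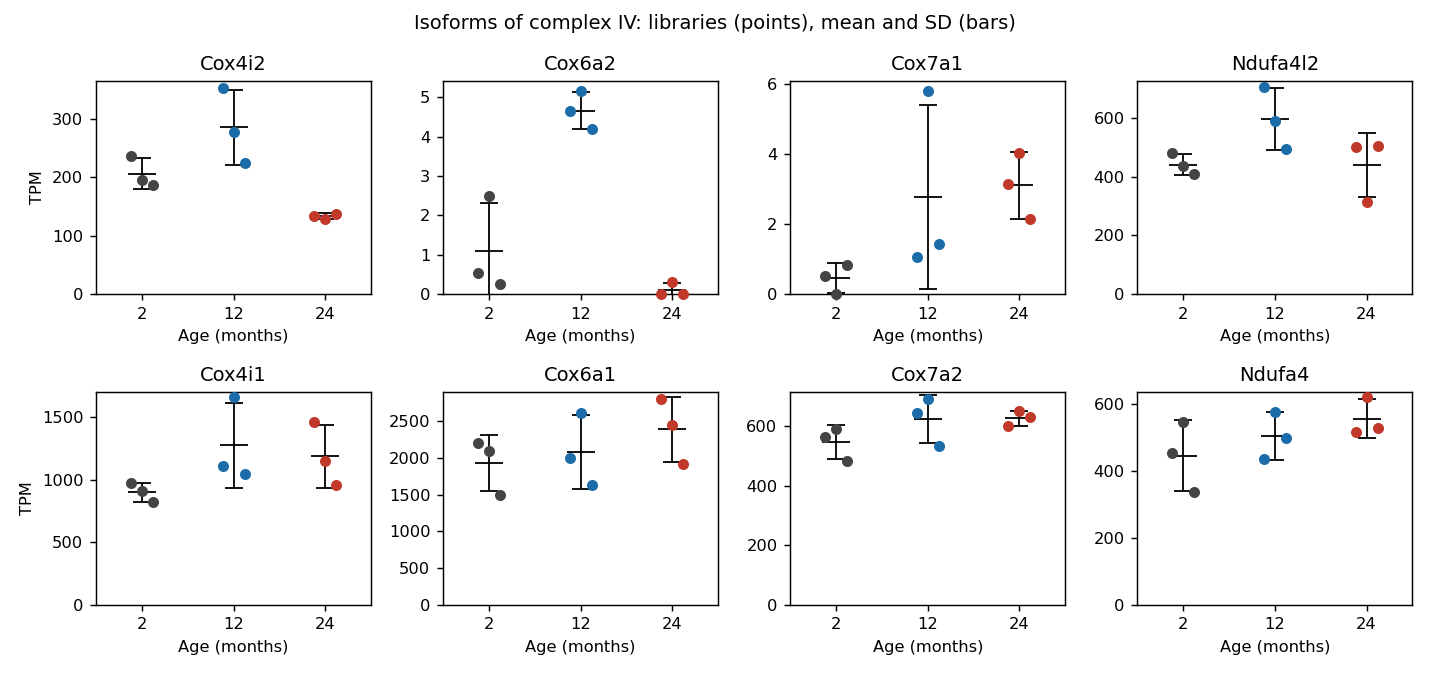
The upper row gives the tissue- or oxygen-regulated gene and the lower row its common relative, with TPM on the y axis, age on the x axis, points for the 3 libraries of an age and bars for mean and SD; bars that would go below 0 end at the axis. The 3 aged libraries are the lowest of the 9 for Cox4i2 (134, 128 and 138 TPM); Cox6a2 is at 0, 0.310 and 0 TPM in them, and its lowest 2 month library is at 0.251 TPM.

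Beside Cox4i2 and Ndufa4l2, 13 other genes known to respond to low oxygen were followed, such as Pdk1, Ldha, Bnip3 and Vegfa. A link between these genes and the levels of Cox4i2, Cox6a2 or Ndufa4l2 was not tested. Between 24 and 12 months 12 of the 13 were negative, where 57.4% of all genes were positive. The median was -0.90 against 0.07 over all genes tested. Of the 13, 1 was called, where 0.455% of all genes were: the oxygen sensor gene Egln1 (PHD2) fell (-2.27, SE 0.19, adjusted p = 7.51e-04, limma). Egln1 had 24.5, 27.3 and 24.4 TPM at 24 months, against 167, 104 and 115 TPM at 12 months. Between 12 and 2 months 10 of the 13 were positive, where 42.8% of all genes were. The median was 0.59 against -0.07 over all genes. Again 1 was called, where 0.724% of all genes were: Ankrd37 rose (1.35, SE 0.27, adjusted p = 0.0488, limma). The call of Ankrd37 was lost when any 1 of the 6 libraries compared was left out (adjusted p from 0.0549 to 0.222). Between 24 and 2 months 11 of the 13 were negative, where 47.9% of all genes were positive. The median was -0.51 against -0.02 over all genes. Here too 1 was called, where 0.159% of all genes were: Egln1 fell (-1.37, SE 0.19, adjusted p = 0.0307, limma). That call, unlike the one at 24 against 12 months, was lost when any 1 of the 2 month libraries was left out, and without the 12 month library 3 or the aged libraries 1 or 2 (adjusted p from 0.0584 to 0.132).

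Complex V, the ATP synthase, had 16 of its 17 genes positive between 24 and 2 months, with a median of 0.28, and none passed limma. At an unadjusted p under 0.05, 6 were higher, where 7.90% of all genes were. The catalytic head genes Atp5a1 and Atp5b differed by 0.01 (SE 0.15) and 0.09 (SE 0.14). Atp5b had 1093, 1041 and 1141 TPM at 24 months, against 1034, 1122 and 937 TPM at 2 months, which overlap. The 4 small membrane subunits (Atp5j2, Atp5k, Atp5l and Atp5mpl) were all higher without overlap, where 11.2% of all genes were, with a median of 0.43; Atp5l had 790, 776 and 659 TPM, against 601, 599 and 474 TPM (0.41, SE 0.16, adjusted p = 0.288).

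Subunit c forms the ring that turns in the membrane, and Atp5g1, Atp5g2 and Atp5g3 encode the same mature peptide behind different import sequences. Atp5g1 was the most abundant of them, with 1030, 992 and 869 TPM at 24 months, against 734, 861 and 669 TPM at 2 months (0.36, SE 0.16). Atp5g2 had 255, 201 and 155 TPM, against 146, 140 and 115 TPM (0.58, SE 0.23), and Atp5g3 had 483, 606 and 491 TPM, against 486, 450 and 428 TPM (0.21, SE 0.16). The first 2 did not overlap and Atp5g3 did. Of the 31-base words of Atp5g2, 40.2% occur in other genes, against 14.1% for Atp5g1 and 0.0% for Atp5g3. Reads of Atp5g2 could thus have been shared with other genes. Atp5s, a coupling factor, had 9.65, 14.5 and 20.5 TPM at 24 months, against 19.2, 18.5 and 18.3 TPM at 2 months, and was the complex V gene with a negative value (-0.36, SE 0.24).

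Short genes of the group had larger differences than long ones. Between 24 and 2 months the median log2 fold change was 0.41 for the 23 genes of up to 300 coding bases, 0.30 for the 29 genes of 300 to 500, 0.19 for the 25 genes of 500 to 1000 and 0.17 for the 12 genes of 1000 to 2000 (lower limits not included). Other genes tested had medians of 0.17, 0.18, 0.09 and -0.06 in the same classes. Between 12 and 2 months the medians were 0.35, 0.27, 0.23 and 0.03, against 0.17, 0.18, 0.06 and -0.13 for other genes. Across the 90 genes with a coding length, Spearman's rho of length and fold change was -0.43 between 24 and 2 months, -0.38 between 12 and 2 months and -0.08 between 24 and 12 months; over 11934 other genes it was -0.23, -0.34 and 0.10. Genes share libraries and are not independent replicates. With the trend on transcript length and GC content removed from each library, the median of the 91 was 0.21 between 24 and 2 months, with 41 genes higher without overlap where 10.6% of all genes were. Between 12 and 2 months it was 0.08, with 58 positive and 14 genes higher without overlap where 8.08% of all genes were.

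**Figure D4:**
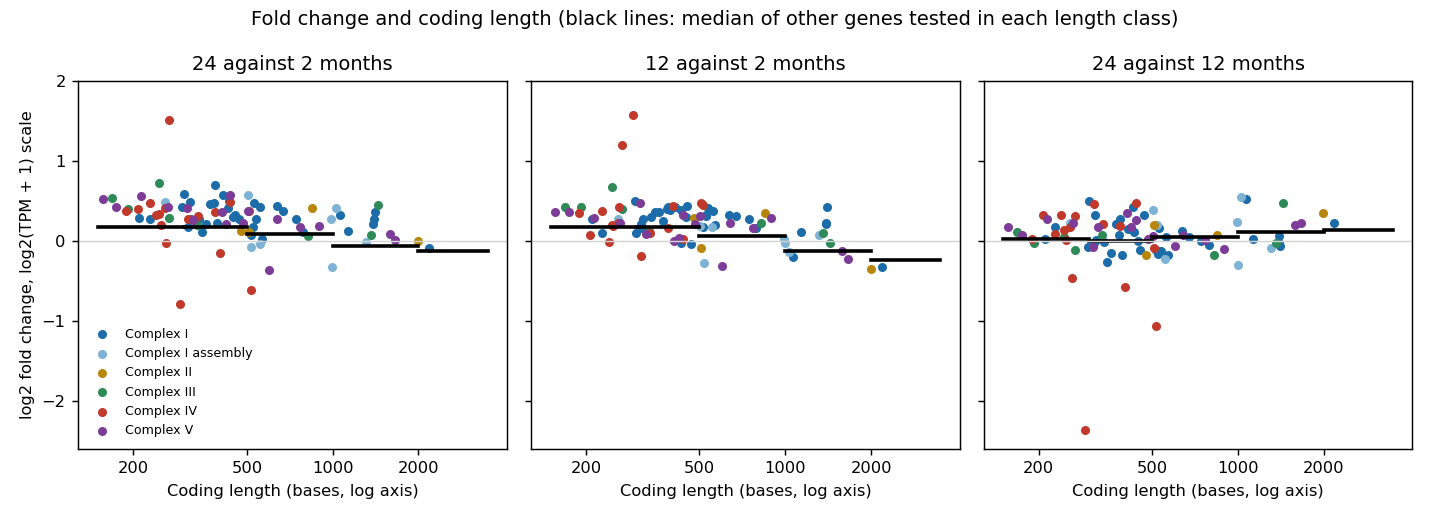
Each point is a tested gene with its coding length (x axis, bases, log scale) and its log2 fold change on the log2(TPM + 1) scale (y axis), coloured by complex, with a panel for each comparison. Black lines are the medians of other genes tested in each length class; against 2 months they run from 0.17 for the shortest class to -0.12 at 24 months and -0.24 at 12 months for the longest.

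Other genes of the pathway were followed from lists. Of 46 tested subunits, carriers, regulators and assembly factors that the symbol rule leaves out, 34 were positive between 24 and 2 months. Over all genes, 47.9% were positive. The median of the 46 was 0.16, against -0.02 over all genes. None of the 46 was called, where 0.159% of all genes were. At an unadjusted p under 0.05, 6 of the 46 were higher, where 7.90% of all genes were. Atpif1, the inhibitor of complex V, had 733, 772 and 599 TPM at 24 months, against 554, 489 and 428 TPM at 2 months (0.51, SE 0.18, adjusted p = 0.244, limma). Between 24 and 12 months 1 of the 46 was called, where 0.455% of all genes were. Bcs1l, the chaperone that inserts the Rieske protein into complex III, rose (1.37, SE 0.24, adjusted p = 0.0285, limma). It had 10.3, 9.53 and 9.89 TPM at 2 months, 4.37, 5.49 and 4.39 TPM at 12 months, and 18.3, 12.9 and 11.1 TPM at 24 months, the lowest values being those of 12 months. The call was lost when any library but 2 of 12 months or 3 of 24 months was left out (adjusted p from 0.0536 to 0.152).

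The 13 proteins encoded in mitochondrial DNA, the partners of these subunits, were not called by limma in any comparison. At an unadjusted p under 0.05, none differed between 24 and 2 months, where 7.90% of all genes were higher and 6.60% lower. Between 12 and 2 months 1 was lower, where 9.65% of all genes were. Between 24 and 12 months 3 were higher, where 9.09% of all genes were. The median of the 13 was 0.10 between 24 and 2 months, with 9 positive, and -0.20 between 12 and 2 months, with 2 positive. The nuclear genes had 0.29 and 0.23. Between 24 and 12 months all 13 were positive, with a median of 0.27. For 24 against 2 months and for 12 against 2 months, mitochondrial ribosomal proteins had medians of 0.32 and 0.20 (78 tested), cytosolic ribosomal proteins 0.22 and 0.34 (89 tested), and proteasome subunits 0.28 and 0.14 (39 tested). The 13 tested regulators of mitochondrial biogenesis had medians of -0.32 and -0.31, with none called by limma. Of the 13, 5 and 4 were positive, where 47.9% and 42.8% of all genes were. Nrf1 (-0.32 and -0.31) and Gabpa (-0.35 and -0.46) were negative. Esrra was positive (0.70 and 0.35), and Tfam had 0.00 and 0.32. At an unadjusted p under 0.05, 1 of the 13 was higher and 2 lower at 24 against 2 months, where 7.90% and 6.60% of all genes were. At 12 against 2 months 0 were higher and 3 lower, where 5.99% and 9.65% of all genes were. The 16 genes of the tricarboxylic acid cycle and pyruvate dehydrogenase had medians of 0.16 and -0.11. The medians of the mitochondrial ribosome and the proteasome between 24 and 2 months were thus close to the 0.29 of the nuclear oxidative phosphorylation genes. The difference between these lists was not tested.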

How the data were processed

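RNA of sorted callus cells was sequenced after low-input cDNA amplification, with an average near 45000000 mapped reads per sample, per the labels' protocols. The sources used here do not give the depth of single libraries, so no counting interval was formed. Values were made with Salmon against GRCm38.p6, per the submitters' processing notes. The deposited table holds log2(TPM + 1) for 53607 symbols and 9 columns, whose headers give the age and no replicate number. It was read as deposited, TPM was obtained by inverting the log2 transform, and no 2 libraries were identical. Coding length, coordinates and shared 31-base words came from GENCODE M21, which had a length for all 97 genes and for 98.9% of rows.

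Differences were tested with limma 3.58.1 in R 4.3.3 (age as a factor, 9 libraries, intensity trend, 6 residual degrees of freedom from samples, two-sided, Benjamini-Hochberg over the 14501 genes that reached 1 TPM in 3 or more libraries, threshold 0.05). The procedure was tested on simulated data. The members, lists and markers were chosen with earlier results of these data known. Genes were named by rule: called genes, the 6 highest and 6 lowest fold changes per comparison, the 3 smallest p per complex, the 5 most abundant, isoform pairs, the 3 most variable, complex I core and Sdh genes; Atpif1, Actg2, Fabp4, Bcs1l and oxygen response genes were named after their values were seen, as were Ndufa6 and Ndufc2. The values of 1 member are not reported here. Alternatives were another offset, filter, scaling or fit, leaving out each library, and a length and GC correction and counts without overlap, both added after seeing the data. A chance count of genes without overlap was not simulated; the share over all genes is given instead.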

Additional observations from a re-analysis of the deposited data

How the results depend on the processing

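The medians of the 91 genes at 24 against 2 and at 12 against 2 months stayed positive under all alternatives run; that at 24 against 12 months was -0.03 after median-of-ratios scaling. No called value of a named gene changed sign in 3356 recomputed values, of which 124 changed sign without being called. Counts of called genes depended strongly on the settings. Over all genes, the 23, 105 and 66 called at 24 against 2, 12 against 2 and 24 against 12 months became 5, 57 and 43 with an offset of 0.1, 0, 8 and 0 without a filter, 3, 15 and 4 without the intensity trend, and 44, 305 and 2 in fits of 6 libraries. With the length and GC trend removed, the first 2 counts were 6 and 67, and median-of-ratios scaling gave 100 at 24 against 12 months. By direction, 38 higher and 67 lower calls at 12 against 2 months became 58 and 57 after median-of-ratios scaling, 22 and 44 at 24 against 12 months became 18 and 82 after it and 20 and 70 after quantile normalization, and 13 and 10 at 24 against 2 months became 2 and 4 with the length and GC trend removed. The F test called 110 genes, 0 without a filter, 171 with a filter of 5 TPM and 14 without the trend. Of the oxidative phosphorylation genes, the 2 called at 24 against 12 months became 1 with an offset of 0.1 (Cox6a2 lost) or with a filter of 5 TPM (Cox6a2 not in the fit), and 0 without a filter, without the trend or with 6 libraries. The F test's 2 became 1 with an offset of 0.1 or a filter of 5 TPM, and 0 without a filter or trend. The call of Bcs1l was lost (0 of the list) without a filter, without the trend and with 6 libraries. Actg2 and Fabp4 at 24 against 2 months lost their calls with an offset of 0.1, Egln1 at 24 against 2 months with the length and GC trend removed, Ankrd37 with either and after rescaling without the 50 most abundant genes, Actg2 and Fabp4 also with the length and GC trend removed, and each of these without a filter or trend. Egln1 at 24 against 12 months and Fabp4 at 12 against 2 months lost it without a filter (adjusted p = 0.0541 and 0.0666, limma). Genes higher without overlap numbered 33 at 24 against 2 months after quantile normalization, where 9.99% of all genes were, 3 at 24 against 12 months after median-of-ratios scaling (7.81% of all genes), and 14 and 21 at 12 against 2 and 24 against 12 months with the length and GC trend removed (8.08% and 11.7% of all genes), where the median at 12 against 2 months was 0.08. The cause of these shifts was not tested, save that a 5 TPM filter and 6 libraries leave fewer genes or samples.

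Leaving out each library gave 1 to 438, 17 to 244 and 2 to 346 called genes in the 3 comparisons and 22 to 686 by the F test. The called oxidative phosphorylation genes ranged from 0 to 2, 0 to 0 and 0 to 3, and 0 to 2 by the F test. Without library 3 of 24 months, Cox5a and Ndufb7 passed at 24 against 2 months (adjusted p = 0.0489, limma) and Cox7a2l at 24 against 12 months (0.0482). In that setting 438 and 346 of all genes were called in these comparisons, the highest counts for any library left out. Of the 91, 2 and 3 were called in it. Medians ranged from 0.24 to 0.38, 0.14 to 0.32 and 0.00 to 0.21. Genes higher without overlap ranged from 52 to 63, 34 to 50 and 9 to 38. At these ends 16% and 19.3%, 9.67% and 12.6%, and 11.2% and 16.8% of all genes were higher without overlap. Leaving out a library of a compared age can only keep or raise such a count for genes that stay in the fit. The ranges of these counts could thus not show a loss. Listed pathway genes called at 24 against 12 months ranged from 0 to 1. The highest median and the highest count without overlap at 24 against 12 months came from leaving out library 2 of 12 months. Without it the median was 0.21, against 0.04 over all genes. In that fit 38 genes were higher without overlap, where 16.8% of all genes were. No paired analysis was possible because the columns carry no replicate numbers.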
